A study of Homo sapiens with 8 samples.

Results

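Epithelial and mesenchymal identity genes were examined in G401, a cell line established from a malignant rhabdoid tumor of the kidney. The 10 genes are given by symbol, without a threshold on a measured value, but they were chosen with earlier results of these data known. They comprise CDH1, EPCAM, KRT8, KRT18 and KRT19 on the epithelial side and VIM, CDH2, ZEB1, ZEB2 and SNAI2 on the mesenchymal side. All 10 were found among the 69215 genes counted in each library, and 5 of them (CDH1, KRT8, KRT18, VIM and ZEB1) passed the expression filter of edgeR, which kept 15931 genes for testing.

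The cells lack SMARCB1, a core subunit of the SWI/SNF chromatin remodelling complexes, and carried a Tet-On cassette for either SMARCB1 or, as a control, GFP. Both lines received 0.1 µg/ml doxycycline (Dox) or dimethylsulfoxide (DMSO) for 12 h, which gave 4 groups of 2 RNA-seq libraries called SMARCB1 DMSO, SMARCB1 Dox, GFP DMSO and GFP Dox. The question was whether restoring SMARCB1 for this time altered the RNA of these genes, with GFP Dox as the control for Dox and for a foreign protein. Plates of each condition were harvested and pooled, and the experiment was done in duplicate. Nothing further states how the duplicates were separated, so p-values measure the spread between these libraries. Each line is a single engineered derivative, so a difference between the DMSO groups cannot be told apart from the history of the derivatives.

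Epithelial cells are held together by E-cadherin, the product of CDH1, and are braced by keratin filaments made of paired type I and type II keratins. Mesenchymal cells build filaments of vimentin and often carry N-cadherin. Transcription factors of the ZEB and SNAI families bind E-boxes and repress CDH1 and other epithelial genes, which makes them central to epithelial-mesenchymal transition. Rhabdoid tumors are known for cells that hold keratins and vimentin at the same time.

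Promoter sequence is shown for VIM and KRT8, which differed in opposite directions between the uninduced lines as described later. RefSeq promoter entries (GRCh38.p14) matched 5 of the 10 genes, namely VIM, KRT8, CDH2, ZEB1 and ZEB2. Each sequence below gives the 250 bases before an annotated start, read 5′ to 3′ on the strand of the gene. The VIM sequence lies at chr10:17227991-17228240 on the plus strand. The KRT8 sequence lies at chr12:52926470-52926719 on the minus strand, before an annotated start inside the span of the gene, and the gene counts do not tell which start was used.
VIM: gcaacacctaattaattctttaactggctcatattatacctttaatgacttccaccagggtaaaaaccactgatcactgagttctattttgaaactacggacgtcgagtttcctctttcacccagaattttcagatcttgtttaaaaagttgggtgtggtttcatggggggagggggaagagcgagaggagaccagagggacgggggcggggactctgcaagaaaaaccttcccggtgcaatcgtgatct
KRT8: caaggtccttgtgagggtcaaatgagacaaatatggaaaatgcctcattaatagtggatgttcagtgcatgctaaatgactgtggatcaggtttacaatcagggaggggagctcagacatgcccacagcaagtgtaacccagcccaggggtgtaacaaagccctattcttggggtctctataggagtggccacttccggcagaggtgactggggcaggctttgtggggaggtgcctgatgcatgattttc
A search of both strands for the 6-letter E-box CACCTG, which ZEB and SNAI factors can bind, found 0 matches in either sequence. No letter is therefore capitalised. Shorter or variant forms of this site were not searched, so the 0 holds for the full 6 letters only. Of 35116 RefSeq promoter windows of this length, 17.5% held at least 1 such box. These are letters in a window, and binding was not measured.

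The libraries held 29632090 to 37597477 counts assigned to genes. Mitochondrially encoded genes took 18.9% to 27.9% of them, most in SMARCB1 DMSO replicate 1. In the SMARCB1 line SMARCB1 itself had 10 and 21 counts under DMSO and 30474 and 29383 under Dox, and all 4 libraries of the GFP line had 0, which matched the labels. The treatment of the GFP libraries cannot be checked in this way. Markers of other cell types were low, apart from 3 of the fibroblast list. The summed level of 5 endothelial markers was 0.328 to 0.829 CPM (counts per library scaled by depth and TMM factors), that of 5 leukocyte markers 1.26 to 3.47 CPM and that of 5 kidney tubule markers 0.137 to 0.4 CPM, with CDH16 and UMOD at 0. The summed level of 6 fibroblast markers was 415 to 547 CPM and came from PDGFRB, COL1A2 and PDGFRA, while LUM and DPT had 0 counts and DCN was at or near 0. PDGFRA had a mean of 0.413 and 1.39 CPM in SMARCB1 DMSO and SMARCB1 Dox against 67.2 and 68.3 CPM in GFP DMSO and GFP Dox. With SMARCB1, PDGFRA was called higher (17 and 8 against 47 and 51 counts, log2 fold change 1.78, edgeR adjusted p = 0.000229) and CD68, of the leukocyte list, lower (2.63 to 1.4 CPM, log2 fold change -0.90, edgeR adjusted p = 0.0222), and no other marker was called. CD68 was not called without either SMARCB1 DMSO library or without SMARCB1 Dox replicate 2 (-0.59, adjusted p = 0.209). The part of these marker differences in the results was not tested.

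G401 cells carried both programs at the RNA level, but each only in part. Vimentin and the keratin pair KRT8 and KRT18 were abundant in every library, ZEB1 was present, and neither cadherin was more than marginal. KRT8 (chr12:52897187-52949954, minus strand) and KRT18 (chr12:52948871-52952906, plus strand) are neighbours on chromosome 12, VIM (chr10:17228241-17237593) and ZEB1 (chr10:31318495-31529814) lie on the plus strand of chromosome 10, and CDH1 lies at chr16:68737292-68835537 (GRCh38, GENCODE v44). Scaled to the union of annotated exons, the mean level over the 8 libraries was 193 CPM per kb for VIM, 106 for KRT18, 64.8 for KRT8 and 10.4 for ZEB1. VIM stood at the 99.5th percentile of the tested genes, KRT18 at the 98.8th, KRT8 at the 97.6th and ZEB1 at the 78.7th. The mean level of CDH1 was 0.0874 CPM per kb, at the 5.33rd percentile. VIM exceeded KRT18 and KRT18 exceeded KRT8 in every library on this scale, but in GFP DMSO VIM and KRT18 lay close, at 137 ± 7.94 and 128 ± 1.99 CPM per kb (SD, n = 2). Scaled to the longest transcript in place of all exons, KRT8 and KRT18 had the same level to 3 digits (156 CPM per kb) and their order was not determined.

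**Figure D1:**
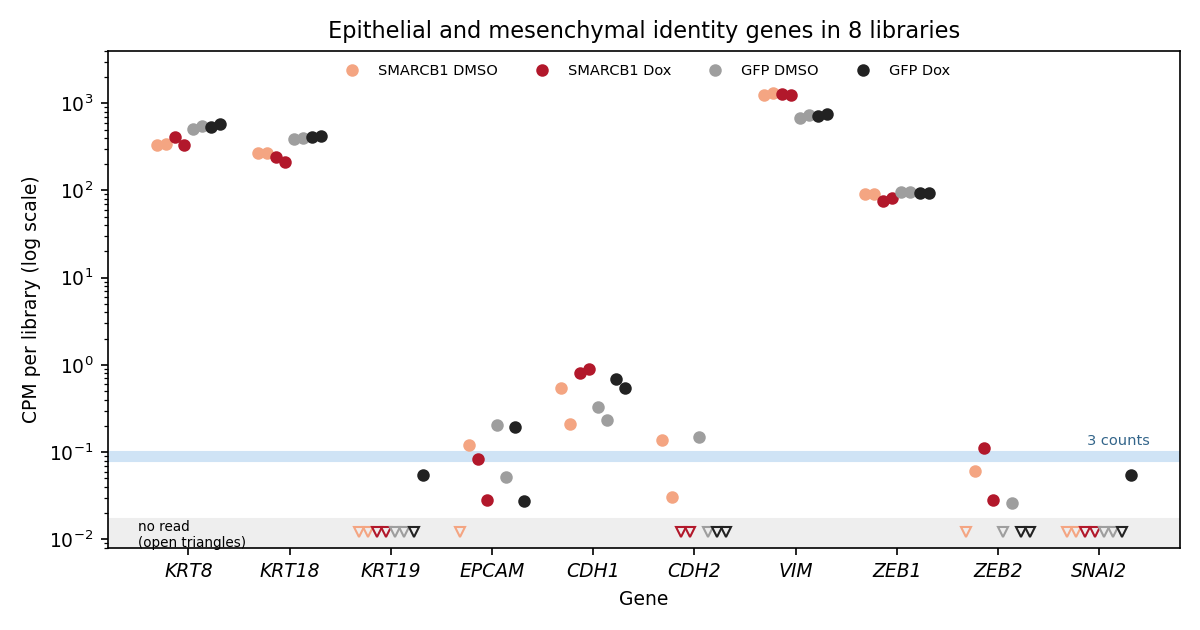
Level of the 10 genes in each of the 8 libraries, in CPM on a log axis, with colors for the 4 groups; open triangles mark libraries without a read, and the blue band marks the level of 3 counts (0.0798 to 0.101 CPM). KRT8, KRT18, VIM and ZEB1 lie far above the band in every library, CDH1 lies just above it, and the other 5 genes lie around or under it.

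The remaining epithelial and mesenchymal genes were at the limit of detection. KRT19, the type I keratin of simple ducts, had 2 reads in all, both in GFP Dox replicate 2. SNAI2, which encodes the repressor SLUG, also had 2 reads in all, both in the same library. ZEB2, the paralog of ZEB1, had 8 reads over 4 libraries, with 0 and 2 under DMSO and 4 and 1 under Dox in the SMARCB1 line, and 0 and 1 under DMSO and 0 and 0 under Dox in the GFP line. These 3 genes were thus read at most a few times at this depth, in either line and with either treatment.

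N-cadherin RNA was as scarce. In the SMARCB1 line CDH2 had 4 and 1 reads under DMSO and 0 and 0 under Dox, and in the GFP line 5 and 0 under DMSO and 0 and 0 under Dox. A count of 0 in both libraries of a group allows up to 0.0425 to 0.0459 CPM (3 counts over the group). EPCAM, an adhesion molecule of epithelial and carcinoma cells, had 0 and 4 reads under DMSO and 3 and 1 under Dox in the SMARCB1 line, and 7 and 2 under DMSO and 6 and 1 under Dox in the GFP line. Its groups overlapped in every comparison. Pooled over the 8 libraries, EPCAM was at 0.0882 CPM (95% Poisson interval 0.0565 to 0.131) and CDH2 at 0.0368 CPM (0.0176 to 0.0676), intervals that cover counting error only. No fold change is given for the 5 genes that did not pass the filter.

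CDH1 was detected in every library but never above 1 CPM. It had 16 and 7 counts under DMSO and 29 and 31 under Dox in the SMARCB1 line, and 11 and 9 under DMSO and 21 and 20 under Dox in the GFP line. In both lines the Dox libraries lay above the DMSO libraries. How many of all genes separate in this way was not counted, here or for the genes described below. Pooled over the 8 libraries, CDH1 was at 0.529 CPM (95% Poisson interval 0.446 to 0.623), more than EPCAM, CDH2, ZEB2, SNAI2 or KRT19, whose intervals lay lower.

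The effect of SMARCB1 re-expression was assessed next, with SMARCB1 DMSO as the reference for SMARCB1 Dox. Of the 10 genes, 5 could be tested and 0 were called by edgeR (quasi-likelihood test, Benjamini-Hochberg adjusted p under 0.05 over all genes). Among all tested genes 14% were called, 8.33% higher and 5.69% lower. With only 5 genes tested, 0 calls do not set these genes apart from that share. By unadjusted p under 0.05 there were 3 of these 5, against 4147 of the 15931 tested genes. DESeq2 called 1 of them, against 1995 of all genes. The median log2 fold change was -0.02 over the 5 tested genes and 0 over all tested genes. Under Dox in the SMARCB1 line, KRT8 and VIM were within their replicate spread, KRT18 and ZEB1 were slightly lower and CDH1 was higher, none of them past the threshold.

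KRT8, the type II keratin of simple epithelia, had 336 and 342 CPM in SMARCB1 DMSO and 406 and 329 CPM in SMARCB1 Dox. The groups overlapped, since the lower Dox library fell under both DMSO libraries. The log2 fold change was 0.12 with a 95% interval of -0.06 to 0.30, at an adjusted p of 0.471 (edgeR, Benjamini-Hochberg). Without SMARCB1 Dox replicate 1 it was -0.04, so the sign for KRT8 rested on that library.

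KRT18, the type I partner of KRT8, had 267 and 269 CPM in SMARCB1 DMSO and 243 and 212 CPM in SMARCB1 Dox. Both Dox libraries lay under both DMSO libraries. The log2 fold change of KRT18 was -0.24 (SE 0.0823, 95% interval -0.40 to -0.08), at an unadjusted p of 0.00884 and a Benjamini-Hochberg adjusted p of 0.0588 in edgeR, just outside the threshold. DESeq2 called KRT18 at an adjusted p of 0.0315 with the same fold change, edgeR also called it without SMARCB1 Dox replicate 1 (log2 fold change -0.34, adjusted p = 0.0269), and scaling to library totals gave -0.14 at an adjusted p of 0.345. The call for KRT18 thus changed with the tool and with 1 library, and the adjusted p ranged from 0.00107 to 0.372 over all alternatives.

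VIM, which encodes vimentin, had 1250 and 1310 CPM in SMARCB1 DMSO and 1270 and 1260 CPM in SMARCB1 Dox. The Dox libraries lay between the DMSO libraries. Its log2 fold change was -0.02 with a 95% interval of -0.18 to 0.14 (edgeR, adjusted p = 0.925), so a change of VIM by more than that interval was not seen.

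ZEB1 had 90.9 and 90.2 CPM in SMARCB1 DMSO and 76.1 and 81.8 CPM in SMARCB1 Dox. Both Dox libraries were lower than both DMSO libraries, and they were the lowest of all 8. The log2 fold change of ZEB1 was -0.20 (SE 0.0777, 95% interval -0.35 to -0.05), with an unadjusted p of 0.0184 and a Benjamini-Hochberg adjusted p of 0.0977 (edgeR). ZEB1 was not called by DESeq2 either (adjusted p = 0.0989), and its adjusted p ranged from 0.035 to 0.511 over all alternatives. The fold change was -0.11 with scaling to library totals, which shifts the median of all genes from -0.004 to 0.088 on the log2 scale in this comparison.

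CDH1 was 0.38 ± 0.238 CPM in SMARCB1 DMSO and 0.85 ± 0.0511 CPM in SMARCB1 Dox (SD, n = 2). The Dox libraries were both higher, at 0.814 and 0.887 CPM against 0.549 and 0.212 CPM. The log2 fold change was 1.18 (SE 0.488, 95% interval 0.22 to 2.13), at an unadjusted p of 0.0249 and an adjusted p of 0.12 (edgeR, Benjamini-Hochberg). It was 0.63 without SMARCB1 DMSO replicate 2 and 1.98 without SMARCB1 DMSO replicate 1, a range set by counts of 16 and 7.

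**Figure D2:**
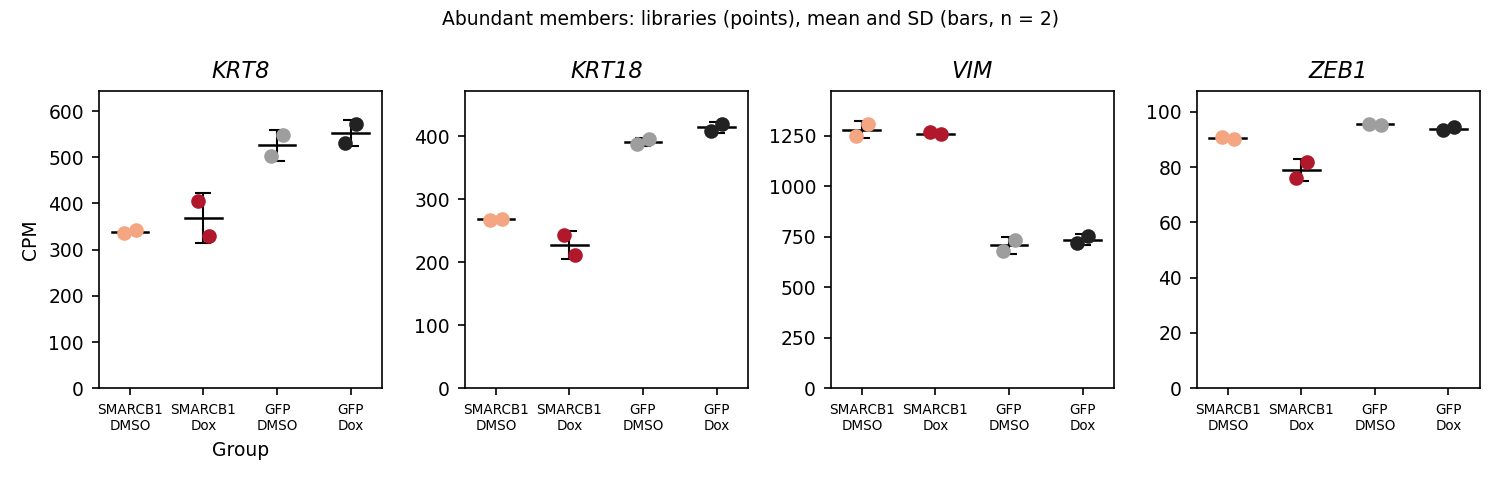
CPM of KRT8, KRT18, VIM and ZEB1 by group, with axes from 0; points are libraries, horizontal bars are means and vertical bars are the SD of 2 libraries. Keratins sit higher and VIM lower in the GFP line, with the Dox and DMSO groups of each line close together; ZEB1 is lowest in SMARCB1 Dox.

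Dox in the GFP line was compared in the same way. No gene of the 10 was called, and 0% of all tested genes were called by edgeR, with 266 of the 15931 genes at an unadjusted p under 0.05. KRT8 had 502 and 549 CPM in GFP DMSO and 532 and 573 CPM in GFP Dox, which overlapped. KRT18 had 387 and 396 CPM in GFP DMSO and 408 and 420 CPM in GFP Dox, a log2 fold change of 0.08 with an interval of -0.08 to 0.24. The KRT18 libraries did not overlap, though by less than their distance to the SMARCB1 line.

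VIM had 678 and 736 CPM in GFP DMSO and 717 and 755 CPM in GFP Dox, with overlap. ZEB1 had 95.8 and 95.3 CPM in GFP DMSO and 93.4 and 94.7 CPM in GFP Dox, a log2 fold change of -0.02 with an interval of -0.17 to 0.13. For these abundant genes the intervals allow only small changes with Dox alone. CDH1 had 0.326 and 0.234 CPM in GFP DMSO and 0.682 and 0.546 CPM in GFP Dox. Its log2 fold change was 1.13 (SE 0.519) at an unadjusted p of 0.0417, which adjusted to 1 over all genes (edgeR, Benjamini-Hochberg).

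CDH1 was thus higher with Dox in both lines, by 2.26-fold and 2.18-fold, from few reads and without a call in either. The difference of the Dox effects between the lines was 0.05 on the log2 scale, with a 95% interval of -1.44 to 1.55, so a difference of either sign remains possible at this depth. The Dox effect on CDH1 averaged over both lines, a contrast chosen after these values were seen, was 1.15 on the log2 scale (SE 0.356, adjusted p = 0.0644, edgeR with Benjamini-Hochberg adjustment).

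The difference of the Dox effects tests whether the response to Dox differed between the lines. Each line is a single derivative with its own induced protein. A dependence on SMARCB1 can therefore not be told apart from the background of the line or from GFP. Of all tested genes 4.71% were called, and 0 of the 5 tested members were. KRT18 came closest, with a difference of log2 fold changes of -0.32 (SE 0.116, 95% interval -0.55 to -0.09), an unadjusted p of 0.0121 and an adjusted p of 0.143 (edgeR, Benjamini-Hochberg). For ZEB1 the difference was -0.18 with an interval of -0.39 to 0.04. For KRT8 it was 0.05 (-0.21 to 0.31) and for VIM -0.08 (-0.30 to 0.15). For the 4 abundant genes these intervals are narrow, and a larger difference between the lines in the 12 h response of their RNA was not seen.

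**Figure D3:**
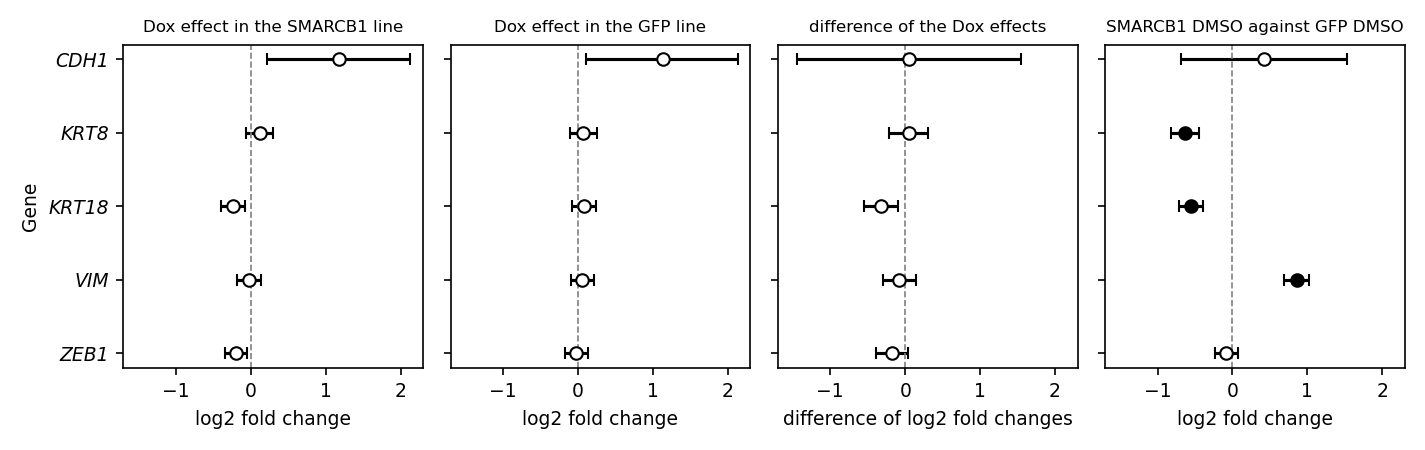
Log2 fold change (difference of log2 fold changes in the third panel) of the 5 tested genes in each comparison, with bars for the 95% interval (1.96 SE); filled points passed the threshold in edgeR (adjusted p under 0.05). The filled points are KRT8, KRT18 and VIM in the comparison of the DMSO groups, and the interval of CDH1 is the widest in every panel.

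The keratin pair was then examined by ratio, since type I and type II keratins assemble in equal numbers. KRT8 over KRT18, both in CPM per kb of exons, was 0.561 and 0.566 under DMSO and 0.747 and 0.694 under Dox in the SMARCB1 line, and 0.579 and 0.619 under DMSO and 0.582 and 0.608 under Dox in the GFP line. Both SMARCB1 Dox libraries lay above the other 6. The size of the ratio depends on the length used, by the same factor in every library, and ran from 0.918 to 1.22 with the longest transcripts. Groups of 2 are too small for an exact test to reach the threshold, so none was made. KRT8 and KRT18 overlap on opposite strands over 525 exonic bases, and the strand option of the counting was not stated, so reads from that stretch could have been lost or exchanged.

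VIM over KRT18, on the same scale, was 2.78 and 2.89 under DMSO and 3.10 and 3.52 under Dox in the SMARCB1 line, and 1.04 and 1.10 under DMSO and 1.04 and 1.07 under Dox in the GFP line. The lines did not overlap. The mean ratio was 2.83 ± 0.0766 in SMARCB1 DMSO and 1.07 ± 0.0455 in GFP DMSO (SD, n = 2).

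**Figure D4:**
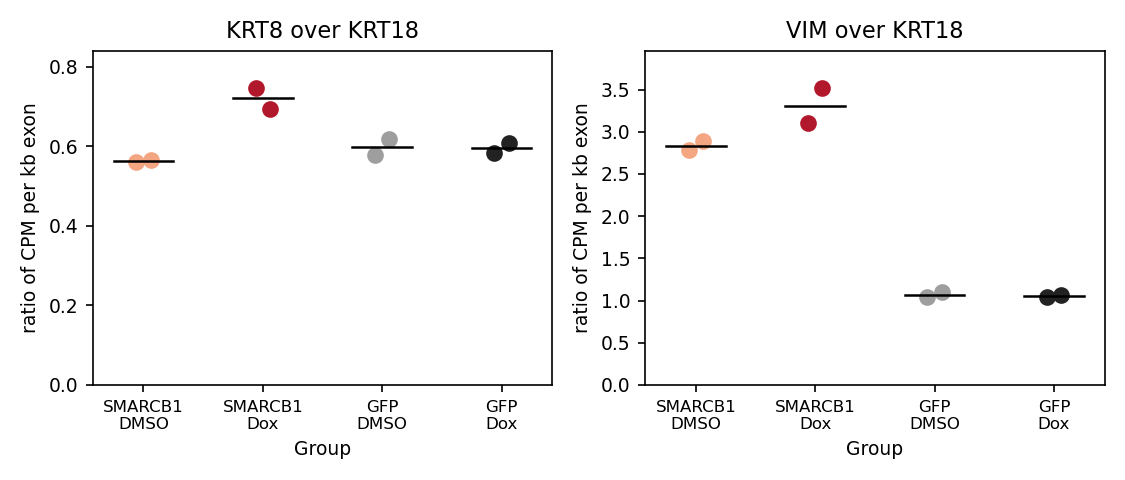
Ratio of KRT8 to KRT18 (left) and of VIM to KRT18 (right) in each library, both genes in CPM per kb of exons, with axes from 0; points are libraries and horizontal bars are group means. On the left both SMARCB1 Dox points lie above the other 6, and on the right all 4 points of the SMARCB1 line lie above those of the GFP line.

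The lines were compared before induction, SMARCB1 DMSO against GFP DMSO. The uninduced SMARCB1 line had more vimentin RNA and less keratin RNA than the GFP line, and 3 of the 5 tested members were called, 1 higher and 2 lower. Among all tested genes 32% were called, 16.3% higher and 15.7% lower. VIM was 1280 ± 41.7 CPM in SMARCB1 DMSO and 707 ± 41.1 CPM in GFP DMSO (SD, n = 2), 1.81-fold higher (log2 fold change 0.86, SE 0.0823, adjusted p = 2.73e-08 by edgeR with Benjamini-Hochberg adjustment).

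KRT8 was 339 ± 4.09 CPM in SMARCB1 DMSO and 526 ± 33.2 CPM in GFP DMSO (SD, n = 2). It was 1.55-fold lower in the SMARCB1 line (log2 fold change -0.63, SE 0.0935, edgeR adjusted p = 1.34e-05). KRT18 was 268 ± 1.48 CPM and 391 ± 6.11 CPM (SD, n = 2), or 1.46-fold lower (log2 fold change -0.55, SE 0.0822, edgeR adjusted p = 1.74e-05). The libraries of the lines did not overlap for any of the 3 genes, but the share of all genes without overlap was not counted. All 3 calls held in every alternative run.

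ZEB1 differed little between the uninduced lines, at 90.6 ± 0.436 CPM and 95.5 ± 0.331 CPM (SD, n = 2). On the log2 scale this was -0.08 with an interval of -0.23 to 0.07 (edgeR, adjusted p = 0.492). CDH1 had a log2 fold change of 0.42 with an interval of -0.68 to 1.53, and its libraries overlapped. The 2 uninduced lines thus differed in filament genes with no call for the repressor ZEB1 or for CDH1. This comparison shares its libraries with the Dox comparisons, in which they are the controls, and neither group received Dox. SMARCB1 itself had 10 and 21 counts in SMARCB1 DMSO and 0 in GFP DMSO (log2 fold change 7.09, edgeR adjusted p = 9.49e-06). The part of this low SMARCB1 RNA in the differences between the lines was not tested.

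Copies and antisense genes bear on these counts. Annotated KRT8 pseudogenes numbered 51, of which 31 had a read, and their summed counts were 1.97% to 2.71% of those of KRT8. For KRT18 there were 67, of which 34 had a read, at 0.992% to 1.65%. Adding these counts to the parent gene changed no call. VIM-AS1, which shares 656 exonic bases with VIM on the opposite strand, had 29 to 58 counts, against 22088 to 45130 for VIM. ZEB1-AS1, which shares 396 exonic bases with ZEB1, had 562 to 832 counts against 2650 to 3660 for ZEB1.

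Related genes were then grouped by function, from lists chosen with earlier results of these data known, and each list was read against the 14% of all genes called in the SMARCB1 line. Genes named below with no call were picked after their values were seen. Of 23 further genes of epithelial adhesion and keratins, 11 were tested, 3 were called higher and 1 lower, with a median log2 fold change of 0.04. PKP2, a desmosomal plaque protein, rose from 14.3 ± 0.665 to 31.1 ± 1.04 CPM (SD, n = 2; log2 fold change 1.12, edgeR, adjusted p = 4.96e-07). JUP, the plakoglobin of desmosomes and adherens junctions, rose from 39.4 ± 3.47 to 76 ± 8.3 CPM (log2 fold change 0.95, edgeR adjusted p = 7.38e-07).

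TJP3, a tight junction scaffold, rose from 0.656 to 1.51 CPM (log2 fold change 1.16, edgeR adjusted p = 0.043) but was not called by DESeq2 (adjusted p = 0.173), without SMARCB1 DMSO replicate 1 (0.63), without SMARCB1 Dox replicate 2 (0.59), without either GFP Dox library or with only the compared groups in the fit. OCLN, the tight junction protein occludin, fell from 38 ± 9.13 to 28.6 ± 0.369 CPM (log2 fold change -0.41, edgeR adjusted p = 0.0224), but without SMARCB1 DMSO replicate 1 the value was -0.14, and the call was also lost without either SMARCB1 Dox library and with scaling to library totals. DSP, which links keratins to desmosomes, was abundant in all groups at 497 to 570 CPM and was not called. The desmosomal cadherins DSG2 and DSC2, by contrast, had at most a stray read.

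Within the keratin and cadherin families as a whole, KRT8 and KRT18 took 98% to 99.2% of the counts of 55 keratin genes, 25 of which had no read in any library. Of 23 cadherin genes, 2 reached 10 CPM in any group. CDH4, the retinal cadherin, was 117 ± 2.58, 108 ± 0.694, 84.8 ± 3.05 and 79.8 ± 3.69 CPM in SMARCB1 DMSO, SMARCB1 Dox, GFP DMSO and GFP Dox, and CDH24 was at 17.1, 20.7, 12.3 and 11.7 CPM. CDH4 was thus the cadherin read most, more than 100 CPM in the SMARCB1 line, where CDH1 stayed under 1 CPM. These families were inspected after the values of the 10 genes were seen.

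Among 13 epithelial transcriptional regulators, 7 were tested, with 1 called higher, 1 lower and a median of 0.79. KLF5 rose from 1.8 ± 0.117 to 6.9 ± 1.83 CPM (log2 fold change 1.94, edgeR adjusted p = 4.11e-06), while KLF4 fell from 9.04 ± 1.06 to 4.74 ± 0.6 CPM (log2 fold change -0.93, edgeR adjusted p = 0.00105). GRHL2, OVOL1 and the host gene of the miR-200 cluster MIR200CHG, all known to oppose ZEB factors, had 0 reads in every group. Their relatives were read at low levels, with GRHL3 at 1.34, 2.35, 3.63 and 4.11 CPM and OVOL2 at 0.49, 0.794, 0.0408 and 0.0734 CPM in SMARCB1 DMSO, SMARCB1 Dox, GFP DMSO and GFP Dox. The epithelial splicing factor ESRP1 was at 0.467 and 1.15 CPM in SMARCB1 DMSO and SMARCB1 Dox. GRHL3 (log2 fold change 0.79, edgeR adjusted p = 0.0535), OVOL2 (0.70, adjusted p = 0.391) and ESRP1 (1.29, adjusted p = 0.0509) were not called with SMARCB1.

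Of 12 regulators of mesenchymal identity, 8 were tested, 2 called higher and 1 lower, with a median of 0.03. FOXC1 rose from 58.3 ± 6.89 to 115 ± 26.8 CPM (log2 fold change 0.97, edgeR adjusted p = 4.11e-06) and FOXC2 from 24.7 ± 1.44 to 37.2 ± 2.32 CPM (0.59, edgeR adjusted p = 0.00351). Without SMARCB1 Dox replicate 1, FOXC2 was not called (adjusted p = 0.0515). TCF4, an E-box factor also called E2-2, fell from 18.4 ± 1.74 to 10.5 ± 0.737 CPM (log2 fold change -0.80, edgeR adjusted p = 0.000201). SNAI1, the paralog of SNAI2, was read at 20.2, 20.6, 19.4 and 19.8 CPM in the 4 groups (log2 fold change 0.03, SE 0.112, not called). SNAI3, a further paralog, had 4 to 19 counts per library, under 1 CPM like CDH1, and was not called. TWIST1 and PRRX1 had at most 1 read in a library, while TWIST2 was at 21.8 CPM in SMARCB1 DMSO and 33.3 CPM in GFP DMSO.

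Of 9 corepressors that act with SNAI and ZEB factors, all 9 were tested and 1 was called, AJUBA, a LIM protein, which rose from 45 ± 0.406 to 71.1 ± 6.07 CPM (log2 fold change 0.66, edgeR adjusted p = 1.35e-05). The list's median was 0.07. Of 13 partners of cadherins and catenins, 7 were tested and 1 was called, NECTIN2, a nectin of adherens junctions, from 112 ± 7.04 to 148 ± 18.2 CPM (log2 fold change 0.40, edgeR adjusted p = 0.00284; median of the list 0.10). NECTIN2 was not called without SMARCB1 Dox replicate 1 (0.27, adjusted p = 0.0831). CTNNB1, CTNNA1 and CTNND1, the catenins that E-cadherin binds, were at 145, 270 and 19.6 CPM in SMARCB1 DMSO and were not called.

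Of 20 mesenchymal structural and secreted genes, 14 were tested, 5 were called higher and 0 lower, with a median of 0.28. AXL, a receptor tyrosine kinase, rose from 35.9 ± 4.92 to 90.7 ± 12.4 CPM (log2 fold change 1.34, edgeR adjusted p = 1.66e-08). FBN1, the microfibril protein fibrillin-1, rose from 26.7 ± 4.08 to 58.5 ± 2.38 CPM (1.13, edgeR adjusted p = 3.72e-07), and MMP14, a membrane-bound collagenase, from 46.7 ± 7.2 to 74.3 ± 6.77 CPM (0.67, edgeR adjusted p = 5.5e-05). LGALS1 and TPM2 were the other two called. FN1, CDH11 and MMP2, which are common mesenchymal markers, were at or under 0.113 CPM in every group. SPARC, a secreted matrix protein, was at 1390 and 1290 CPM in the SMARCB1 line and 138 and 140 CPM in the GFP line, and did not respond to Dox past the threshold. S100A4 went the other way between the lines, at 1.81 CPM in SMARCB1 DMSO and 59.8 CPM in GFP DMSO. Between the DMSO groups, 5 of the 14 tested genes of this list were called higher in the SMARCB1 line and 5 lower, against 32% of all tested genes called.

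Other intermediate filament genes and their linkers gave 12 tested genes of 17, with 4 called higher, 0 lower and a median of 0.18. NES, a filament of progenitor cells, rose from 41 ± 5.31 to 58.9 ± 3.57 CPM (log2 fold change 0.52, edgeR adjusted p = 0.000945), and INA, a neuronal filament, from 64 ± 2.49 to 83.5 ± 4.97 CPM (0.38, edgeR adjusted p = 0.00386). LMNA, a nuclear lamin, rose by 0.30 on the log2 scale (edgeR, adjusted p = 0.0462) and lost its call without SMARCB1 DMSO replicate 1, either SMARCB1 Dox library or either GFP Dox library, with values of 0.21 to 0.34, and with only the compared groups in the fit (adjusted p = 0.0515). The remaining called gene, EPPK1, was under 1 CPM. DES and GFAP were at or near 0.

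The TGF-beta pathway, an inducer of epithelial-mesenchymal transition, had 13 of 14 genes tested, 5 called higher and 1 lower, with a median of 0.17. TGFB1, the ligand, rose from 16.5 ± 0.434 to 34.9 ± 7.08 CPM (log2 fold change 1.08, edgeR adjusted p = 1.23e-06), and TGFBR1, the type I receptor, from 10.8 ± 0.109 to 25.9 ± 2.83 CPM (1.27, edgeR adjusted p = 1.33e-07). TGFBR3, a coreceptor, rose by 0.59 (edgeR, adjusted p = 0.00041), while SMAD3, an effector of the receptors, fell from 174 ± 12 to 128 ± 4.31 CPM (log2 fold change -0.45, edgeR adjusted p = 0.000511). TGFBR2, the type II receptor that the ligand binds first, had a mean of at most 0.0514 CPM in any group. In the GFP line, 0 genes of any of these lists were called with Dox, as was true of all genes.

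**Figure D5:**
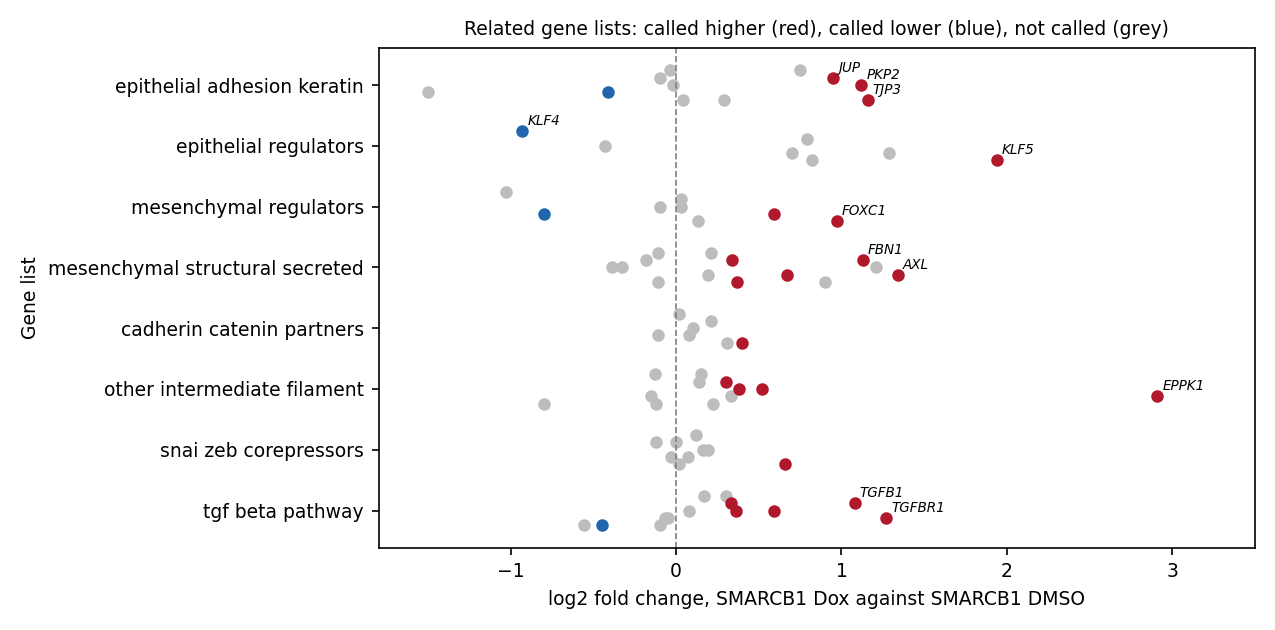
Log2 fold change of SMARCB1 Dox against SMARCB1 DMSO for each tested gene of the 8 related lists; red points were called higher and blue points lower by edgeR, grey points were not called, and called genes with a change of at least 0.9 are named. Called genes lie on both sides of 0 in the epithelial, regulator and TGF-beta lists and to the right of 0 in the other lists.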

How the data were processed

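RNA-seq libraries of G401 cells (8 in all, 2 per group) were grouped by their titles. The files hold raw counts as deposited. The authors aligned reads with STAR and counted them per gene with HTSeq over exons in intersection-strict mode with GENCODE v42 on hg38. Versions and the strand option were not given in the sources used here. The labels name ribosome profiling kits for these libraries and the methods a directional RNA kit, so the chemistry is uncertain. The 5 entries that name no gene held 27% to 29.3% of the reads of a library and were left out. Symbols, lengths and positions came from GENCODE v44 on GRCh38, matched by identifier without version (62625 of 69215).

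Counts were tested with edgeR 4.0.16 in R 4.3.3 (TMM, filterByExpr, 1 quasi-likelihood fit of all 8 libraries) with Benjamini-Hochberg adjustment over 15931 genes and a threshold of 0.05. DESeq2 1.42.0 was an alternative, besides other scalings, filters, sample sets and left-out libraries. CPM used TMM factors, fitted intervals are 1.96 SE either side, and a floor of 3 counts is scaled to library totals. On simulated counts for SMARCB1 Dox against SMARCB1 DMSO, 75.5% of genes changed 2-fold and 58.5% of genes changed 1.5-fold were recovered. Members and gene lists were chosen with earlier results of these data known. From each list the text names up to 3 called genes per direction, by size of change, at a mean of at least 1 CPM in the SMARCB1 line. Neighbours in pattern were to be named for members called with SMARCB1, and there were 0.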

Additional observations from a re-analysis of the deposited data

Results flagged for a closer look

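None of the 10 genes differed between the lines in its Dox effect past the threshold. Among the named genes of the related lists, 11 did, by the test of the difference itself (edgeR, Benjamini-Hochberg adjusted p under 0.05). Of all tested genes 4.71% did. The named genes were picked because they were called with Dox in the SMARCB1 line, which is part of this difference. Their count is therefore no independent result. Desmosomal PKP2 had a difference of log2 fold changes, SMARCB1 line minus GFP line, of 1.06 (SE 0.171) and JUP one of 0.81 (SE 0.135). The regulators KLF5 and FOXC1 had differences of 2.05 (SE 0.354) and 0.89 (SE 0.163). For AXL it was 1.53 (SE 0.146), for FBN1 0.99 (SE 0.153) and for MMP14 0.66 (SE 0.136). The corepressor AJUBA had a difference of 0.71 (SE 0.123). In the TGF-beta pathway the differences were 1.19 (SE 0.156) for TGFBR1, 1.01 (SE 0.157) for TGFB1 and -0.46 (SE 0.113) for SMAD3. The fibroblast marker PDGFRA, named after its values were seen, had a difference of 1.75 (SE 0.312). The SMAD3 call was lost with scaling to library totals (-0.38, adjusted p = 0.0968) and without SMARCB1 DMSO replicate 2, SMARCB1 Dox replicate 1 or any 1 of the 4 GFP libraries, where the adjusted p ran up to 0.126.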

How the results depend on the processing

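The 3 members called between the DMSO groups were called in every alternative, and 0 were called with Dox in the GFP line in any. With Dox in the SMARCB1 line, 0 members were called, against 1 by DESeq2 (KRT18) and 0 to 1 with a library left out (1, KRT18, without SMARCB1 Dox replicate 1). The labels share replicate numbers only (correlation of same-numbered deviations 0.0309 to 0.148), so the samples are not known to be paired. With the replicate number as a block, 2 members were called for the SMARCB1 line (KRT18 at -0.24, adjusted p = 0.0156, and ZEB1 at -0.20, adjusted p = 0.035) and 1 for the difference between lines (KRT18, -0.32, adjusted p = 0.043). With the replicate block and a GC trend removed, these were 1 and 1, both KRT18 (-0.38 and -0.45). That fit changed the sign of KRT8 in the SMARCB1 line to -0.03 and in the difference to -0.09, and of ZEB1 between the DMSO groups to 0.03. It also ended the calls of NECTIN2 (0.19, adjusted p = 0.0905), LMNA (0.09, adjusted p = 0.468) and TJP3 (0.96, adjusted p = 0.077) in the SMARCB1 line. In the block fit the average Dox effect on CDH1 was 1.17 (adjusted p = 0.034). Among all genes, the block moved those called in the SMARCB1 line from 2234 to 3149 and those called for the difference from 750 to 1282. With the GC trend removed as well, 2805 genes were called in the SMARCB1 line. Scaling to library totals changed VIM in the SMARCB1 line to 0.07 and in the difference to 0. It shifted the median of all genes between the DMSO groups from 0.015 to -0.101. Signs also changed when a library was left out, with ranges of -0.04 to 0.26 for KRT8 and -0.05 to 0.01 for VIM in the SMARCB1 line, 0 to 0.11 for VIM in the GFP line, -0.50 to 0.86 for CDH1 and -0.11 to 0.19 for KRT8 in the difference, and -0.38 to 0.97 for CDH1 between the DMSO groups. None of these values was called, and the cause was not tested. Over all genes, calls fell from 2234 to 1462 without SMARCB1 DMSO replicate 1 and to 1284 without SMARCB1 Dox replicate 1, and for the difference from 750 to between 390 and 497 without SMARCB1 Dox replicate 1 or 1 of the GFP libraries. With no expression filter, 1 gene was called in the GFP line. Of 323 member values under alternatives, 301 kept their direction and their side of the threshold. Groups of 2 libraries and the low counts of CDH1 limit what could be called.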
